A study of Mus musculus with 6 samples.

Results

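The genes that load, dock and release synaptic vesicles were measured in lumbar dorsal root ganglia of mice 3 days after a burn and in control mice. The members were picked by gene name, with earlier results of these data known. They were all synaptotagmins, syntaxins, VAMPs, complexins, RIMs, SV2 proteins and syntaxin-binding proteins in the count files, the synapsins Syn1, Syn2 and Syn3, and Snap25, Snap23, Syp, Unc13a, Unc13b, Unc13c, Bsn and Pclo. This gave 69 members of 38926 gene symbols. They comprised 24 SNARE proteins, 17 synaptotagmins, 12 SNARE regulators, 9 active zone proteins and 7 proteins of the vesicle membrane or surface. Among the regulators, the symbol Stxbp3b matched a processed pseudogene in the annotation. The family names also bring in relatives that work elsewhere in the cell, such as the Golgi and endosomal syntaxins, so not every member acts at a synapse. Of the 69, 64 held enough reads for the test. The other 5 were Vamp7, with 0 reads in all 6 libraries and no gene model matched to its symbol, Stx19 and Cplx3, with 0 reads in 5 libraries and 1 and 3 reads in burn 3, Cplx4, with 0 to 2 reads per library, and Syt8, with 2 to 8.

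All mice were wild-type C57BL/6 males aged 6 to 8 weeks, and no allele or drug is named for either group. Whole ganglia of levels L3 to L5 were taken 3 days after the burn in 3 libraries, numbered burn 1 to 3 here, and from control mice in 3 libraries, control 1 to 3. Burn 3 is titled BURN_IP, with no replicate number, and the labels do not explain the letters IP. They give the same extraction and library protocol for all 6 libraries. Leaving it out lowered the differences of several members, given beside them below. How the control mice were handled is not given either. The labels call the tissue both whole ganglia and neurons. The listed markers of sensory neurons, satellite glia, myelinating Schwann cells, macrophages and endothelium were read in these libraries, so the counts come from a mixed tissue. In such bulk samples, fewer cells of a type and less RNA per cell cannot be told apart. The labels do not say that libraries came from separate animals, so the p-values measure the spread between these libraries, which may be technical in part.

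Gene counts totalled 17273908 in control 2 and 81968142 in control 3, with burn 3 at 70002671 and the other 3 libraries from 22023565 to 35991111. Burn 3 and control 3, the 2 deeper libraries, stood apart from the other 4 on the first principal component of all genes, which held 39.4% of the variance. Each group had 1 of them, and the values within each depth class are given below. Across all genes, edgeR's quasi-likelihood test called 4 of 17534 tested genes at an adjusted p under 0.05, all 4 higher after burn, and 519 (2.96%) had an unadjusted p under 0.05.

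A synaptic vesicle fuses when a SNARE protein on the vesicle, such as synaptobrevin, zips together with syntaxin and SNAP-25 on the plasma membrane. Syntaxin-binding and Munc13 proteins prepare this complex, complexin holds and then promotes it, and a synaptotagmin triggers fusion when calcium enters. RIM, Bassoon and Piccolo build the active zone where this happens, and synapsins hold the reserve of vesicles. Sensory neurons make these mRNAs in the cell body, which itself receives few synapses, and send the proteins along the axon to their terminals in the spinal cord and the periphery.

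Levels are given as RPKM, read counts divided by exon length and by scaled library size, so that genes of different length can be compared. They are means ± SD of the 3 control libraries. The 68 members with a known length spanned a wide range: 3 were at 100 RPKM or more, 28 between 10 and 100, 26 between 1 and 10, and 11 under 1. High levels were read for Cplx1 at 179.9 ± 51.6, Syt11 at 179.1 ± 27.1, Snap25 at 130.6 ± 48.6 and Syt4 at 89.8 ± 15.8 RPKM. The control ranges of neighbours in this order overlapped. Among the 11 members under 1 RPKM were Syt10, Syt13, Syt14, Syt15, Syt16, Syt17 and Syn3. The summed level of all members was 1424 ± 235 RPKM in controls and 1445 ± 138 RPKM after burn (n = 3 each).

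**Figure D1:**
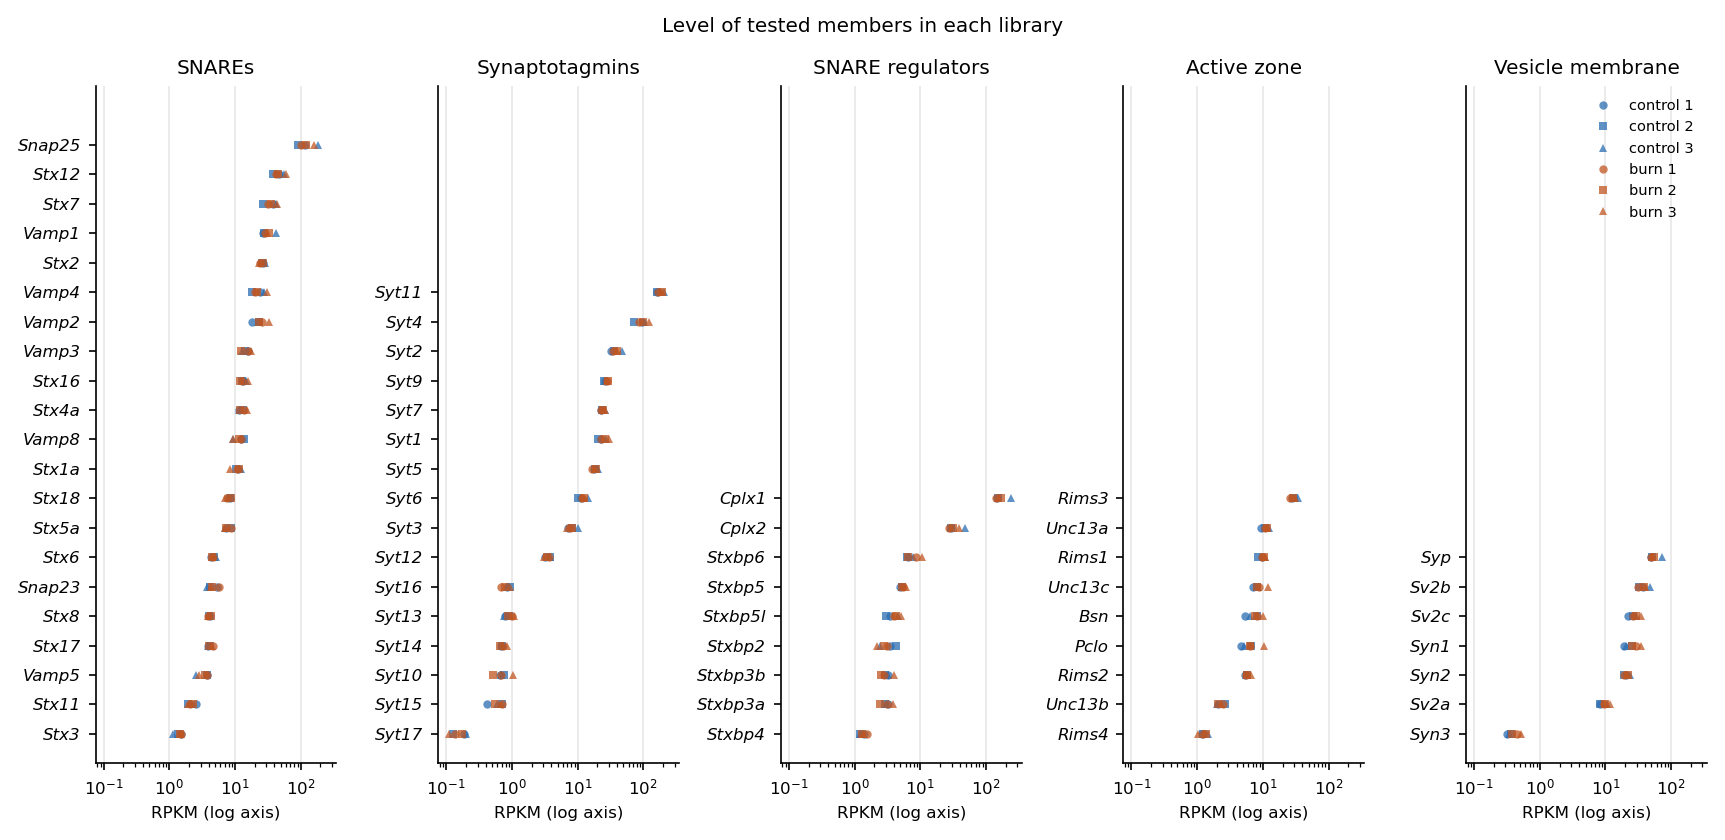
Level of 62 tested members in each library, in RPKM on a log axis, by role and ordered by the control mean, with 1 symbol per library (blue for control, orange for burn). Burn and control symbols lie close together in each row compared with the span between members, from Cplx1, Syt11 and Snap25 above 100 RPKM on average to Syt17 and Syn3 under 1.

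The exocytic SNAREs were read at very unequal levels. Snap25, the plasma membrane SNARE of neurons, was at 130.6 RPKM and its widely expressed relative Snap23 at 4.39 RPKM in controls. Both synaptobrevins of neuronal vesicles were present, Vamp1 at 32.3 and Vamp2 at 21.4 RPKM. The neuronal plasma membrane syntaxin Stx1a, at 11.3 RPKM, was below the endosomal syntaxins Stx12, at 47.2, and Stx7, at 35.7 RPKM. Stx2, a plasma membrane syntaxin of many cell types, was at 27.2 RPKM.

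Among the synaptotagmins, Syt11 and Syt4, relatives that lack the usual calcium binding, had the highest levels in controls. Of the fast calcium sensors, Syt2 was at 38.8 ± 8.09, Syt9 at 25.9 ± 0.401 and Syt1 at 23.2 RPKM. Syt7, the slow sensor of high calcium affinity, was at 24.2 RPKM, close to Syt1 and Syt9 when all exons are joined. By the longest single transcript, Syt1 was at 40.2 RPKM, above Syt7 at 27.4 and Syt9 at 26.95. Syt5 was at 18.9 RPKM.

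The other roles had the same kind of order, with 1 or a few high members. Among regulators, the complexin Cplx2 was at 35.8 ± 10.6 RPKM, well below Cplx1. In the active zone, the short RIM gene Rims3 was highest at 30.5 RPKM, followed by the priming factor Unc13a at 11.0. The scaffolds Bsn and Pclo were at 6.60 and 5.51 RPKM. On the vesicle, Syp, the membrane protein synaptophysin, was at 57.5 ± 13.2 RPKM, Sv2b at 38.7 ± 7.85, Sv2c at 25.7, Syn1 at 21.8 and Syn2 at 21.2, while Sv2a was at 9.06 and Syn3 at 0.339 RPKM. These levels depend on the length used. With the longest single transcript in place of all exons joined, 24 of 66 members moved by more than 1.5-fold, among them Syp to 105.3, Vamp1 to 57.6, Syt1 to 40.2, Syn2 to 38.7 and Vamp2 to 37.0 RPKM, and Snap25 stood at 181.7 RPKM.

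The level ratio within pairs of related genes describes which of them dominates the pool. In controls, Snap25 exceeded Snap23 by 31.2 ± 16.3-fold, Cplx1 exceeded Cplx2 by 5.03 ± 0.0753-fold and Unc13a exceeded Unc13b by 4.93-fold. Sv2a stood at 0.236 ± 0.0205 of Sv2b. After burn the same ratios were 27.0 ± 9.66, 4.87 ± 0.836, 4.97 and 0.282 ± 0.0263. The ratio of Syn1 to Syn2 was 1.05 ± 0.262 in controls and 1.44 ± 0.254 after burn, and that of Syt1 to Syt2 was 0.606 ± 0.0711 and 0.690 ± 0.0647. In each of the 10 pairs plotted the ratios of burn and control libraries overlapped. By the longest transcript, the control ratio of Syn1 to Syn2 was 0.58 and that of Rims1 to Rims2 was 0.922 in place of 1.75, so in these pairs the order depends on the length used.

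**Figure D2:**
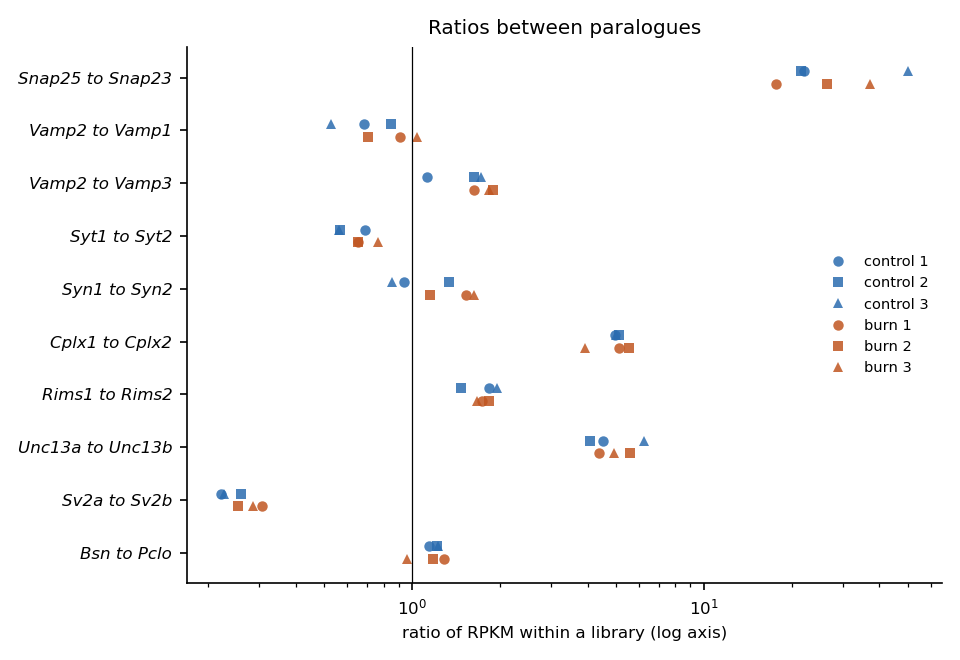
RPKM ratio within 10 pairs of related members on a log axis, with 1 symbol per library (blue for control, orange for burn) and a line at equal levels. The ratio is highest for Snap25 to Snap23, and burn and control points overlap in every pair.

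The burn comparison asks whether the injury goes with a different level of these mRNAs in the ganglia that supply the hind limb. No member differed at an adjusted p under 0.05, against 4 genes or 0.0228% of all tested. All 4 of those genes were higher, and 0% were lower. The count was 0 of 64 by edgeR's quasi-likelihood test, and every member had an adjusted p of 0.9998. It was also 0 by DESeq2, which called 0.0966% of all genes, and by limma-voom, which called 0.0171%. The 16 alternative fits each called 0 members, with 0% to 0.217% of all genes called. At an unadjusted p under 0.05 there was 1 member, Syn1, or 1.56% of members against 2.96% of all genes. Syn1 was higher after burn, as were 2.04% of all genes at this threshold, and 0 members were lower, against 0.924%. DESeq2 gave 3 such members, 4.41% against 2.16% of all genes, and limma-voom 2, 3.12% against 2.87%. The log2 fold change of burn over control was positive for 40 members and negative for 24, with a median of 0.05 and a range from -0.35 for Syt17 to 0.50 for Pclo. Over all 17534 genes tested the median was 0.01, with 9137 positive and 8397 negative. Within 0.3 of 0 lay 56 of 64 members and 14694 of the 17534 genes.

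The size of a difference that these data leave possible can be given for each member. The 95% interval of the burn effect lay within a 2-fold change in either direction for 62 of 64 members, or 96.9%, against 82.1% of all genes. The exceptions were Pclo, with an interval from -0.04 to 1.04 on the log2 scale, and Syt17, whose reads were few. The median standard error of a member's log2 fold change was 0.16. In 4 members the lowest burn library lay above the highest control library, which held for 4.33% of all genes. In 0 members did all burn libraries lie below all controls, against 2.91% of all genes. The 4 were Vamp2, Syn3, Syt9 and Stxbp5.

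**Figure D3:**
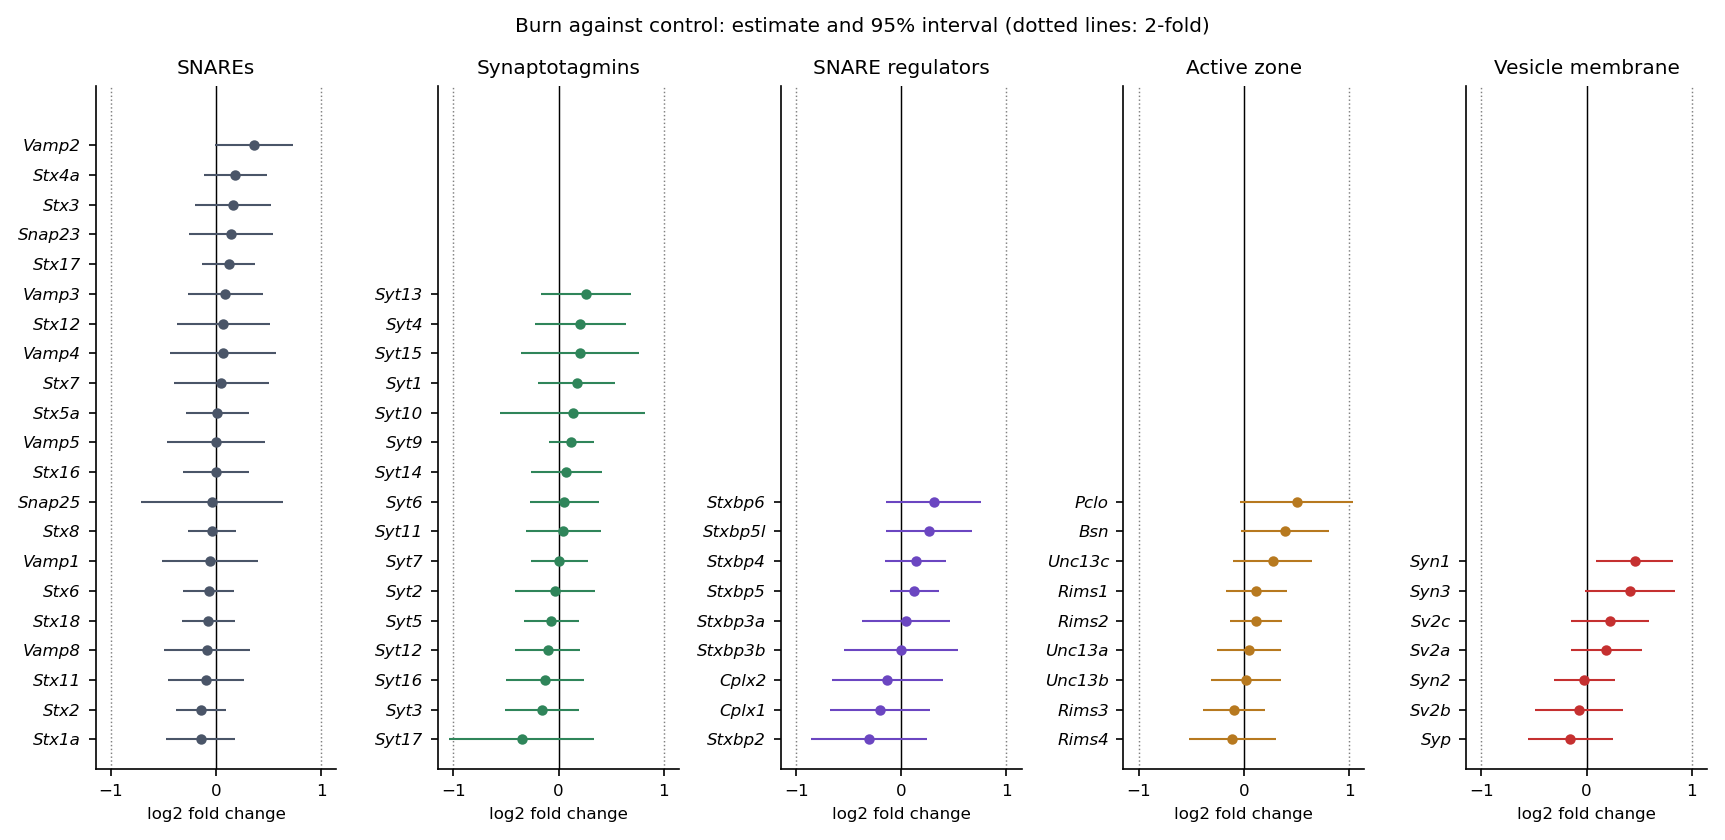
Log2 fold change of burn over control for 62 tested members, grouped by role, with its 95% interval from edgeR's quasi-likelihood fit. Of the intervals drawn, only that of Syn1 lies clear of 0, and most estimates lie within 0.3 of it.

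The vesicle proteins had a median log2 fold change of 0.19 over 7 members, 4 positive and 3 negative. Syn1 encodes synapsin 1, which ties vesicles to actin and to each other. It lies on chromosome X (GRCm38, chrX:20860511-20921004, minus strand). Its values were 96.5, 84.1 and 115.1 CPM (read counts scaled to library size only) in burn 1 to 3 and 64.0, 84.5 and 67.2 CPM in control 1 to 3. Burn 3 was highest and control 1 lowest, and burn 2 and control 2 were nearly equal, so the groups overlapped. Its log2 fold change was 0.46 ± 0.16 (SE, n = 3 per group), with an interval from 0.09 to 0.82, an unadjusted p of 0.0212 and an adjusted p of 0.9998 in edgeR's quasi-likelihood test.

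The 250 bases before the start of Syn1 are shown beside those of its paralogue Syn2 because, at similar RPKM, Syn1 had the lowest p of all members and Syn2 a value close to 0. They are from RefSeq on GRCm38.p6, written 5′ to 3′ on the strand of the gene. Capitals mark 2 motifs searched on both strands: TTCAGCACC, the left part of the site of REST, a repressor of neuronal genes in other cells, and TGACGTCA, the cyclic AMP response element.
Syn1, chrX:20920919-20921168, minus strand: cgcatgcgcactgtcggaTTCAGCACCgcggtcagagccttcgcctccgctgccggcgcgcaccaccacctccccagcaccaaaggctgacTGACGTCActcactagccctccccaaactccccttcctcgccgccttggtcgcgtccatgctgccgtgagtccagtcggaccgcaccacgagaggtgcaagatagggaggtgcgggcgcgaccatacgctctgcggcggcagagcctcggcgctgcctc
Syn2, chr6:115134652-115134901, plus strand: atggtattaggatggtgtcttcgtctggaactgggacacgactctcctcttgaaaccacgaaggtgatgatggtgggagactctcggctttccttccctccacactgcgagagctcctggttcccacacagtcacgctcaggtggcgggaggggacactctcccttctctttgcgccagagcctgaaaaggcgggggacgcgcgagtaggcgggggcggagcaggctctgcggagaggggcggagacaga
The RefSeq start of Syn1 lies inside the GENCODE model given above, so this window reaches into that model. In Syn1 the motifs began 232 and 159 bases before the RefSeq start, and neither was in the Syn2 window shown. Another Syn2 start has its window at chr6:115238744-115238993, not printed here, which also held neither. Windows were found for 52 members, 67 windows in all. The first motif was in 1.49% of these, the Syn1 window alone, against 0.301% of 32851 windows of all genes. The second was in 2.99%, those of Syn1 and Stxbp3, against 1.55%. These are letter matches and were not measured as bound sites.

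Syn2 had 134.6, 155.9 and 150.2 CPM in the burn libraries and 145.6, 133.9 and 167.5 CPM in the controls, a log2 fold change of -0.02 ± 0.13. Syn3, the least abundant synapsin, had 5.43, 4.70 and 6.45 CPM after burn and 3.88, 4.45 and 4.17 CPM in controls. Its groups did not overlap, with burn 2 just above control 2. Burn exceeded control by 0.41 ± 0.18 on the log2 scale, with an unadjusted p of 0.0558 in edgeR. Of the Syn3 exon bases, 14.1% overlap Timp3 on the other strand, and the sources used here do not say whether reads were counted by strand, so reads of Timp3 could be included.

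Synaptophysin and the SV2 glycoproteins also overlapped between groups. Syp had 253.1, 290.6 and 264.0 CPM after burn and 254.1, 265.8 and 378.4 CPM in controls, where control 3 alone stood high and the other 5 libraries lay close together. Its log2 fold change was -0.15 ± 0.17. Sv2c had 253.9, 280.2 and 341.5 CPM after burn and 212.8, 254.9 and 280.7 CPM in controls, with overlap and a log2 fold change of 0.23 ± 0.16. Sv2a, the binding site of the antiepileptic drug levetiracetam, was at 0.19 ± 0.15 and Sv2b at -0.07 ± 0.18 on the same scale.

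The SNAREs had a median log2 fold change of 0.01 over 22 tested members, 13 positive and 9 negative. Of these, 21 of 22 lay within 0.3 of 0, as did 14694 of all 17534 genes. Vamp2 encodes synaptobrevin 2, the vesicle SNARE cut by tetanus toxin. It had 99.2, 89.6 and 124.0 CPM in the burn libraries and 68.7, 89.6 and 86.1 CPM in the controls. Burn 3 was highest and control 1 lowest, and burn 2 exceeded control 2 by less than the digits shown. Its burn effect was 0.36 ± 0.16 on the log2 scale, with an unadjusted p of 0.0573 in edgeR, and 0.22 without burn 3.

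Vamp1, synaptobrevin 1, had 291.8, 338.6 and 317.6 CPM after burn and 268.6, 282.3 and 435.2 CPM in controls. Control 3 was the highest library and control 1 the lowest, so the burn libraries lay inside the control range. The log2 fold change was -0.06 ± 0.20. Snap25 had 681.8, 814.8 and 1098 CPM after burn and 785.6, 619.3 and 1255 CPM in controls, a log2 fold change of -0.04 ± 0.29 with an interval from -0.71 to 0.64. Both deeper libraries had the highest Snap25 values, 1 in each group.

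Stx1a had 28.4, 30.5 and 22.7 CPM after burn and 29.3, 28.2 and 32.7 CPM in controls. Burn 3 was the lowest library and control 3 the highest, and the others overlapped. Its log2 fold change was -0.15 ± 0.14. Stx2 was at -0.14 ± 0.10 and Stx4a, a plasma membrane syntaxin of many cells, at 0.18 ± 0.13. Snap23 was at 0.15 ± 0.17. The endosomal Stx12 and Stx7 overlapped between groups as well, with 134.8 to 193.5 CPM for Stx12 after burn and 122.5 to 179.5 CPM in controls.

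The synaptotagmins had a median log2 fold change of 0.05 over 16 tested members, 10 positive and 6 negative. Syt9, a fast calcium sensor, had 110.3, 115.2 and 110.2 CPM after burn and 104.0, 101.0 and 103.6 CPM in controls. All burn libraries lay above all controls by a narrow margin, with little spread in either group. The difference was 0.12 ± 0.09 on the log2 scale, with an unadjusted p of 0.229 in edgeR.

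Syt1 had 188.6, 215.4 and 250.03 CPM after burn and 188.4, 167.8 and 224.7 CPM in controls, a log2 fold change of 0.17 ± 0.16 with overlapping groups. Syt2 had 264.0, 302.7 and 299.4 CPM after burn and 250.9, 270.5 and 366.4 CPM in controls, with the burn libraries inside the control range and a log2 fold change of -0.04 ± 0.16. Syt11, the most abundant synaptotagmin, had 861.5, 1018 and 1005 CPM after burn and 857.4, 844.5 and 1095 CPM in controls, a log2 fold change of 0.04 ± 0.15. In each of the 3 genes the groups overlapped. Syt4, a synaptotagmin of dense-core vesicles, was at 0.21 ± 0.19, or 0.064 without burn 3, and Syt7 at 0.01 ± 0.11. The scarce Syt13 was at 0.26 ± 0.18. Syt17, with the most negative log2 fold change of the members at -0.35 ± 0.30, had 0.707, 0.894 and 0.578 CPM after burn and 0.983, 0.668 and 1.03 CPM in controls.

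The SNARE regulators had a median log2 fold change of 0.07 over 10 tested members, 6 positive and 4 negative. Both tested complexins were among the negative ones. Cplx1 had 310.5, 375.9 and 339.1 CPM after burn and 326.1, 330.9 and 524.3 CPM in controls. Control 3 stood far above the other 5 libraries, which overlapped. Its log2 fold change was -0.20 ± 0.20, and that of Cplx2 was -0.13 ± 0.23.

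Stxbp5, the inhibitor tomosyn, had 89.2, 88.8 and 100.03 CPM after burn and 82.2, 87.5 and 86.0 CPM in controls, a log2 fold change of 0.12 ± 0.10. Its groups did not overlap, but burn 2 and control 2 lay close together. The related Stxbp5l was at 0.27 ± 0.18, and Stxbp6, or amisyn, at 0.31 ± 0.19, or 0.12 without burn 3. Stxbp2, which acts in granule release of blood cells, was at -0.31 ± 0.24, the lowest of the regulators.

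The active zone genes had a median log2 fold change of 0.11 over 9 members, 7 positive and 2 negative. Pclo encodes Piccolo, a very large scaffold protein, and had 143.2, 145.2 and 236.9 CPM after burn and 104.7, 149.2 and 117.1 CPM in controls. Burn 3 alone stood high, and control 2 lay above burn 1 and burn 2. Piccolo's log2 fold change was 0.50 ± 0.23, with an unadjusted p of 0.063 in edgeR.

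Bsn, for the sister scaffold Bassoon, had 130.9, 121.9 and 161.7 CPM after burn and 84.9, 128.8 and 102.0 CPM in controls, a log2 fold change of 0.39 ± 0.18 with an unadjusted p of 0.0614. Burn 3 was again the highest library, and control 2 lay above burn 2. Without burn 3 the log2 fold changes of Pclo and Bsn were 0.24 and 0.28, and without control 2 they were 0.66 and 0.56. For Syn1 the same values were 0.34 and 0.59. Of the Munc13 priming factors, Unc13c was at 0.27 ± 0.16, Unc13a at 0.05 ± 0.13 and Unc13b at 0.02 ± 0.14. Rims1 and Rims2, scaffolds that bind calcium channels, were both at 0.11, with standard errors of 0.12 and 0.11. Rims3 was at -0.09 ± 0.13. Without burn 3, Unc13c was at 0.096.

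RNA of spinal cord was present at low levels and differed between libraries. Of 13 listed spinal cord genes, 12 were tested and all 12 had a positive log2 fold change, with a median of 1.40 and 0 called. Their summed level was 90.6, 58.7 and 111.6 CPM in burn 1 to 3 and 62.1, 64.7 and 44.7 CPM in control 1 to 3. Slc6a5, the glycine transporter of spinal interneurons, had 8.44, 4.34 and 11.7 CPM after burn and 3.88, 2.67 and 1.34 CPM in controls. Chat, the enzyme that makes acetylcholine in motor neurons, had too few reads for the test and 0 in control 2. Burn 1 and burn 3 had the highest sums and also the highest values of Syn1, Syn3 and Vamp2. Other members had another order. Pclo was higher in control 2 than in burn 1. Snap25, Cplx1, Vamp1 and Syp were highest in control 3, which had the lowest sum.

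Central neurons also express many of the members, both those that fell and those that rose below. The member values are therefore given with a covariate made from 12 of the spinal cord markers. The log2 fold change of burn was then 0.11 for Syn1, 0.08 for Pclo, 0.15 for Bsn, 0.15 for Syn3 and 0.18 for Vamp2. It rose instead for others, to 0.50 for Vamp1, 0.40 for Snap25 and Cplx1, 0.36 for Syt2 and 0.33 for Syp. Over the members, 47 of 64 were positive with a median of 0.11, against 40 and 0.05 without the covariate. In this fit 0 members had an unadjusted p under 0.05 in edgeR, and 0 genes were called. The covariate differs between the groups itself, so burn and spinal cord RNA can be told apart only in part.

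Of 11 tested sensory neuron markers, 1 had a positive and 10 a negative log2 fold change, with a median of -0.11 and 0 called. Their summed level was 9629, 11530 and 9467 CPM after burn and 10240, 10420 and 12450 CPM in controls, highest in control 3. Nefh, the heavy neurofilament of large sensory neurons, had 1619, 1960 and 1417 CPM after burn and 1490, 1672 and 2445 CPM in controls. Control 3 was thus the highest library for Nefh and for Cplx1, Syp, Vamp1 and Syt2. Skeletal muscle markers summed to 699.9 to 11860 CPM across libraries, with no order by group. The part of these other tissues and of the neuron markers in the member values was not tested beyond the covariate given above.

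**Figure D4:**
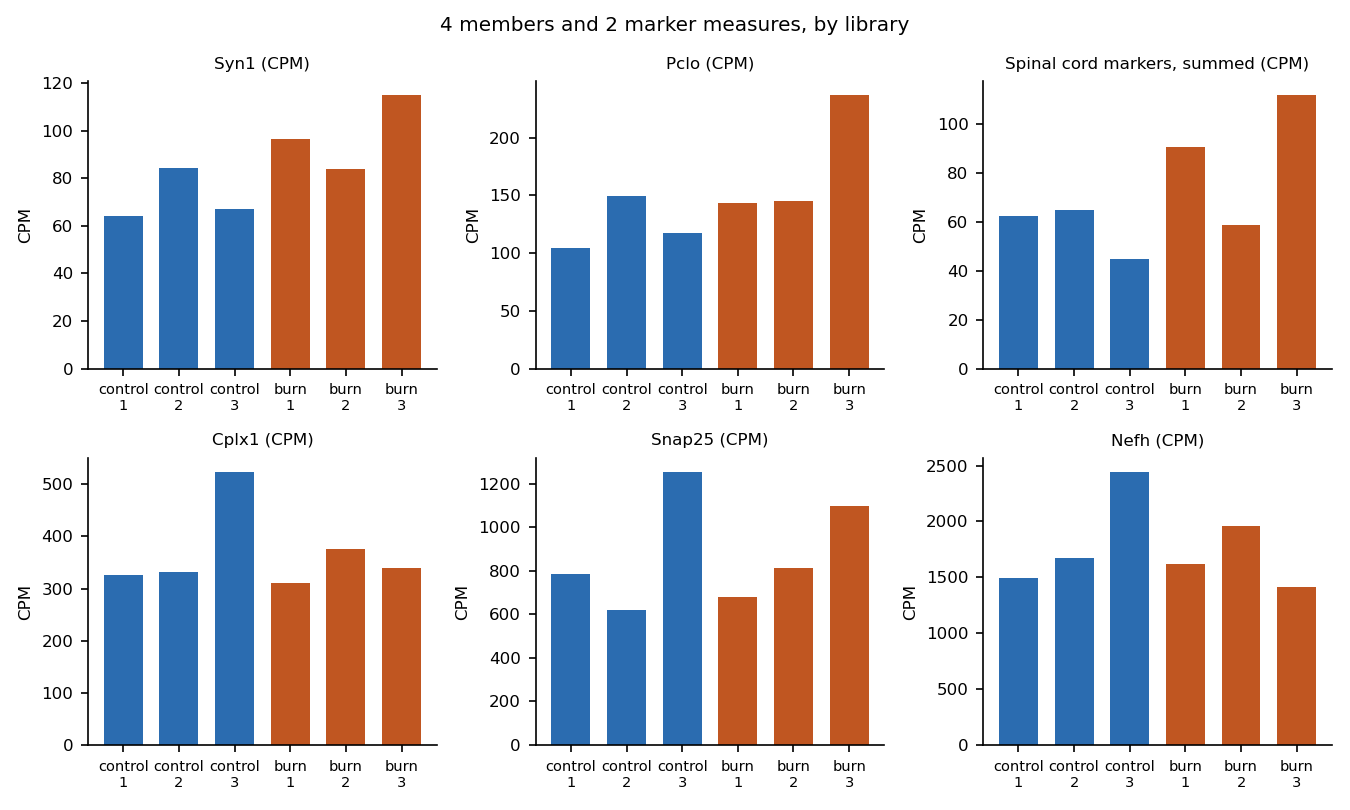
CPM of Syn1, Pclo, Cplx1, Snap25 and Nefh and the summed CPM of the spinal cord markers, with 1 bar per library (blue for control, orange for burn) and no error bar, since each bar is 1 library. Syn1, Pclo and the spinal cord sum are highest in burn 3, and Cplx1, Snap25 and Nefh are highest in control 3.

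Members were compared between the 2 deeper and the 4 shallower libraries, as a description with no test. In 19 of 64 members, or 29.7%, both deeper libraries lay above all 4 shallower ones, against 15.2% of all genes. In 4 members, or 6.25%, both lay below, against 15.4%. The 19 included Snap25, Syt1, Syt4, Syt7, Cplx2, Rims1, Rims3, Sv2a, Sv2b and Sv2c. They also included the endosomal Stx12 and Stx7, and Stx16, Vamp4 and the pseudogene match Stxbp3b, so not only neuronal release genes. The 4 were Stx5a, Stxbp2, Vamp5 and Vamp8, of which Vamp5 and Vamp8 are best known from cells other than neurons and Stx5a works at the Golgi. With 1 deeper library in each group, whether depth or another property of these 2 libraries goes with the split was not tested.

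Within depth classes the difference was taken between burn 3 and control 3 and, separately, between burn 1 and 2 and control 1 and 2. The sign was the same in both classes for 38 of 64 members (59.4%), against 53.7% of all genes. It was positive in both for 27 members (42.2%, against 29.4% of all genes) and negative in both for 11 (17.2%, against 24.4%). The log2 difference was 0.78 in the deeper pair and 0.29 in the shallower libraries for Syn1, 1.02 and 0.21 for Pclo, 0.66 and 0.27 for Bsn, 0.62 and 0.28 for Syn3, and 0.53 and 0.26 for Vamp2. In these 5 members the difference was positive in both classes and larger in the deeper pair. They have the lowest p of the fit over the same 6 libraries, which largely fixes this sign, so it is no separate support.

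Among the named members, several had opposite signs in the classes. Cplx1 differed by -0.63 in the deeper pair and 0.06 in the shallower libraries, Vamp1 by -0.45 and 0.19, Syp by -0.52 and 0.06, and Stx1a by -0.52 and 0.03. For Snap25 the values were -0.19 and 0.10. The deeper pair has 1 library per group and so no replicate check. With control 3 left out of the fit on all libraries, 8 of the named members of negative log2 fold change had a positive one. These were Snap25 at 0.31, Vamp1 at 0.21, Syt2 at 0.16, Cplx2 at 0.15, Sv2b at 0.11, Syn2 at 0.08, Cplx1 at 0.07 and Syp at 0.06.

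**Figure D5:**
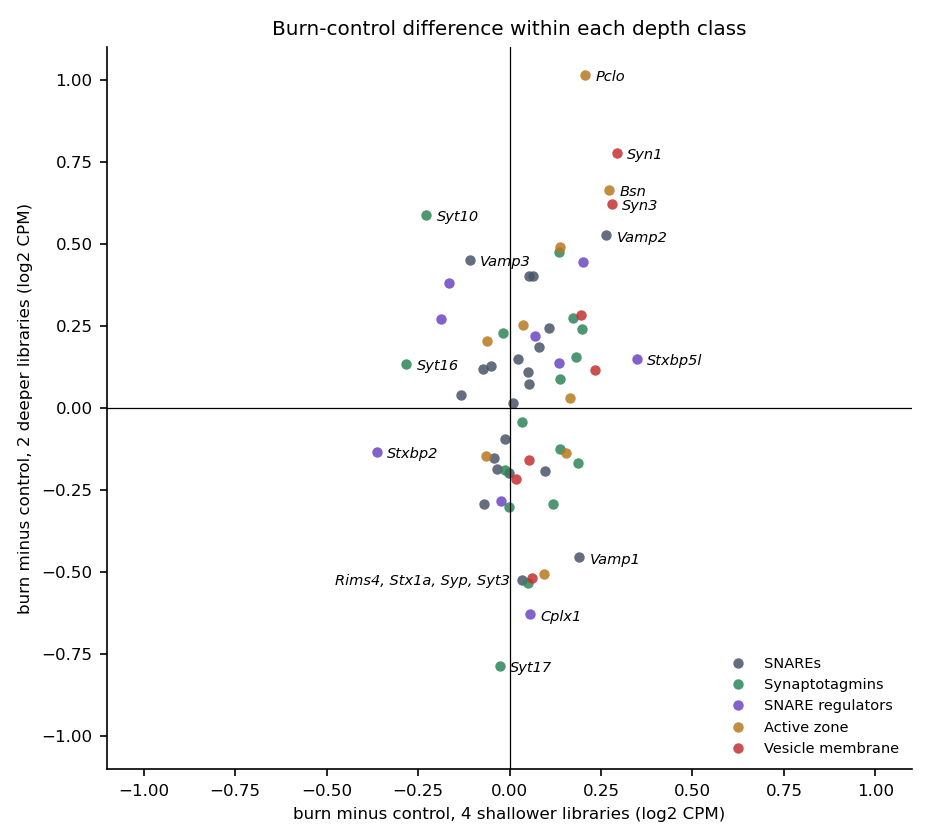
Log2 difference of burn over control for 62 tested members in the 4 shallower libraries (x axis) and in the 2 deeper libraries (y axis), coloured by role, with the members farthest from 0 labelled. Pclo, Syn1, Bsn, Syn3 and Vamp2 lie above 0 on both axes, and Cplx1, Syp, Vamp1 and Stx1a lie above 0 on the x axis only.

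A list of 51 companion genes of the same pathway was read in the same fit. It covered the NSF and SNAP proteins that take SNARE complexes apart, Rab3 and Rab27 and their partners, further active zone and priming factors, endocytic proteins, and other vesicle proteins. Of these, 49 were tested, with 25 positive and 24 negative log2 fold changes, a median of 0.01, 0 called and 0 with an unadjusted p under 0.05 in edgeR. The 4 with the lowest p were Synj1, Dnm3, Sytl2 and Rab3d. Synj1, the phosphatase synaptojanin that strips the clathrin coat, had 142.7, 136.2 and 199.0 CPM after burn and 114.8, 124.3 and 132.5 CPM in controls, with no overlap. Its log2 fold change was 0.36 ± 0.16 and its unadjusted p 0.0587. Dnm3, a dynamin that cuts vesicles from the membrane, had 218.2, 217.4 and 336.5 CPM after burn and 178.5, 188.3 and 214.0 CPM in controls. Its groups did not overlap, but burn 2 and control 3 lay close together, and its log2 fold change was 0.41 ± 0.19. Both had their highest value in burn 3, as Pclo, Syn1 and Bsn did. Rab3d, a Rab protein of secretory granules, had 134.7, 151.0 and 125.7 CPM after burn and 158.0, 152.9 and 156.0 CPM in controls. All its burn libraries lay below all its controls, and its log2 fold change was -0.18, with an unadjusted p of 0.138. Of the 49 companions tested, 2 were higher and 1 lower without overlap, against 4.33% and 2.91% of all genes.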

How the data were processed

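Whole lumbar ganglia gave stranded total RNA libraries, as the labels' protocols state, read in single-end reads of 75 nucleotides. The authors deposited raw counts of reads per gene symbol, 1 file per library. Per the submitters' processing notes, which give no versions, the tools were STAR, SAMtools and HTSeq, on mm10 (GRCm38). Neither the gene annotation nor the use of strand in counting is given in the sources used. Each file's 5 tally lines, 49.18% to 56.22% of its total, name no gene and were dropped. Reads carry no molecular identifiers. Library pairs of 1 group differed by more than sampling noise (chi-square over its degrees of freedom 40.5 to 189), so none was treated as another deposited again. That does not show that they came from separate animals.

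The test was edgeR 4.0.16 in R 4.3.3, on 17534 genes that passed filterByExpr (minimum count 10, minimum total 15). It used TMM scaling, robust glmQLFit and a two-sided glmQLFTest for group, with Benjamini-Hochberg adjustment over all these genes and a threshold of 0.05. The biological coefficient of variation was 0.221. Each SE is the absolute log2 fold change over the square root of F. CPM and RPKM were computed from the counts with TMM-scaled totals. RPKM used the joined exon length of GENCODE mouse release 21, in which 66 members were found by symbol and 2 by synonym. Promoter windows are from RefSeq. Figures were drawn with matplotlib 3.10.9. On simulated counts for this comparison (17356 genes), the procedure recovered 58% of 100 genes changed by a log2 of 1 and 98% of 100 changed by 2, with 12 false calls.

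The members, roles and marker lists were chosen with earlier results of these data known. The synaptotagmin-like Sytl genes were read as companions, not members. Some items are not reported by name here. Named members are the 12 with the lowest p, the 4 with the highest control RPKM in each role, and a list of the best-known release genes whatever their result. Companions named are the 4 with the lowest p. Syt17, Stxbp2, Syt5 and the members named for depth, low level or missing reads were chosen after their values were seen. Alternatives were RLE and upper-quartile factors, no filter, a filter of 1 CPM in 3 libraries, DESeq2 1.42.0, limma-voom (limma 3.58.1), each library left out, a replicate block, a term for the 2 deeper libraries, the 4 shallower libraries alone, a spinal cord covariate, and other lengths or totals for RPKM.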

Additional observations from a re-analysis of the deposited data

How the results depend on the processing

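No alternative called a member. The count of all genes called, 4 with the settings used, was 14 without the filter, 28 by DESeq2, 38 with a term for the deeper libraries, 15 in the 4 shallower libraries and 0 with the spinal cord covariate, and from 1 to 6 with 1 library left out. Members at an unadjusted p under 0.05, 1 with the settings used, were 4 without the filter (5.88%, against 2.97% of all genes), 3 with the stricter one (4.76%, 2.68%), 3 by DESeq2 (4.41%, 2.16%), 2 by limma-voom (3.12%, 2.87%), 5 with the depth term (7.81%, 5.73%), 2 in the shallower libraries (3.12%, 4.21%) and 0 with the covariate (2.42% of all genes). With 1 library left out they ran from 0 without burn 3 (2.27% of all genes) or control 1 (1.95%) to 6 without burn 2 (9.38%, against 4.31%). The members' median log2 fold change ran from 0.02 to 0.12. Of 37 named members, 17 kept their sign in all 16 alternatives, all positive, and 20 did not. Beyond what the construction of each setting shows, the cause was not tested. The named members include those with the lowest p of the main fit, all positive except Stx2. The alternatives use the same libraries or some of them. For these lowest-p members this largely fixes a stable sign, so it is no separate support. No such count for all genes is given here.

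In the 4 shallower libraries alone the log2 fold change had the other sign for Syp (0.079), Vamp1 (0.21), Unc13b (-0.049), Syt2 (0.14), Syn2 (0.069), Sv2b (0.036), Stx1a (0.049), Cplx1 (0.077) and Snap25 (0.10). Snap25 was 0.020 by limma-voom. Syt7 was -0.0038 without the filter and -0.0038 with upper-quartile factors. With the covariate the sign was the other one for Sv2b (0.28), Syn2 (0.22), Syt2 (0.36), Syt13 (-0.021), Stx4a (-0.094), Syp (0.33), Stx2 (0.030), Vamp1 (0.50), Snap25 (0.40), Snap23 (-0.15), Rims3 (0.058), Cplx2 (0.23), Cplx1 (0.40), Unc13b (-0.27) and Stx1a (0.19). Over the libraries left out in turn, the lowest and highest values were -0.24 and 0.31 for Snap25, -0.19 and 0.11 for Sv2b, -0.094 and 0.079 for Syn2, -0.14 and 0.16 for Syt2, -0.044 and 0.16 for Unc13b, -0.093 and 0.22 for Stx12, -0.11 and 0.19 for Stx7, -0.032 and 0.087 for Syt7, -0.024 and 0.18 for Syt11, -0.054 and 0.17 for Unc13a, -0.32 and 0.066 for Cplx1, -0.28 and 0.15 for Cplx2, -0.26 and 0.060 for Syp, and -0.18 and 0.21 for Vamp1. The other sign came without control 3 for Cplx1, Cplx2, Syp and Vamp1, without burn 3 or control 2 for Stx12 and Stx7, without control 1 for Unc13a and without control 1 or 2 for Syt11. Snap25, Sv2b, Syn2, Syt2 and Unc13b took it without burn 1 or control 3, Snap25 also without burn 2 (0.0033), Unc13b also without control 1, and Syt7 without burn 3, control 1 or control 2.

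The labels give only numbers 1 and 2 to both groups. Same-numbered libraries did not deviate together (correlations -0.09 and -0.06). Burn 2 with control 1 and burn 1 with control 2 had 0.38 and 0.44. So few libraries cannot settle whether same-numbered ones share more than a number. A fit of these 4 libraries with the replicate number as a block, which left 1 residual degree of freedom, called 4 genes and 0 members, with 1 member at an unadjusted p under 0.05 and a member median of 0.07. In the block fit the sign was the other one for Syt2 (0.13), Unc13b (-0.047), Vamp1 (0.20), Syn2 (0.067), Sv2b (0.031), Stx1a (0.049), Snap25 (0.11), Syp (0.076) and Cplx1 (0.071).

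With 3 libraries a group, simulated 2-fold changes were recovered in 58% of cases, so smaller ones can be missed. The simulation changed 100 genes by each size, whereas 4 genes were called in these data. More changed genes loosen the adjusted threshold, so the share recovered in these data may be lower than 58%. Low counts limit Syt17, Stx19, Cplx3, Cplx4 and Syt8. Exon overlap on the other strand covered 32.3% of Stx18, 17.2% of Syt12, 16.8% of Syp and 14.5% of Syt4.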
